A study of Mus musculus with 30 samples.

Results

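The Fc gamma receptors of the mouse, the cell-surface proteins that bind the constant part of IgG, were followed at the transcript level in bone marrow (BM) and in adipose tissue macrophages (ATM). The members were the 3 activating receptor genes *Fcgr1*, *Fcgr3* and *Fcgr4*, the inhibitory receptor gene *Fcgr2b* and *Fcer1g*, which encodes the signalling chain shared by the activating receptors. They were taken by symbol from the gene column of both count tables, and all 5 were present in both, out of 17336 genes in the tables together (13353 in BM and 17059 in ATM). The set was chosen by earlier results of these same counts, in which *Fcgr1* was higher in Vehicle than in WT BM, so that value is given as a description, with no test, and the other members' values in that BM comparison are not independent support.

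The libraries came from lethally irradiated recipients (700 cGy, then 400 cGy) that received CD45.2+ marrow of Shp2E76K/+;LysM-Cre+ donors, which carry a gain-of-function allele of the phosphatase gene *Ptpn11* together with a Cre driven in myeloid cells. The donor marrow was mixed in equal numbers with CD45.1+ Boy/J competitor marrow, so each sample holds mutant and competitor cells in proportions that the counts do not give, beside cells that survive in the host. Recipients were WT mice or leptin-deficient, obese Ob/Ob mice, all on a C57BL/6J background, of both sexes, about 12 to 14 weeks of age. From 8 weeks after transplantation, Ob/Ob recipients were given for 30 days vehicle (Vehicle), the GLP1R agonist beinaglutide at 3 mg/kg, an anti-IL-17A antibody at 200 µg per mouse 3 times a week, or both agents (Combo), while the WT recipients have no agent in the labels. BM is whole marrow and ATM are F4/80+ cells sorted from visceral fat. Each of the 5 groups had 3 libraries per tissue, 30 in all, described as separate mice, but which BM and ATM libraries share a mouse is not stated. The sample titles number the libraries within a group and name no mouse. A legend of the study names WT rather than mutant donor cells for the WT ATM group, and can be read as placing them in Ob/Ob recipients. The labels of single samples do not settle this, so in ATM recipient and donor cannot be told apart. WT is taken below as lean recipients in both tissues.

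Activating Fc gamma receptors pair with the *Fcer1g* chain, whose tyrosine-based motif recruits the kinase Syk once IgG complexes crosslink the receptors, and this leads to phagocytosis, killing of antibody-coated cells and release of inflammatory mediators. *Fcgr1* encodes the high-affinity receptor of monocytes and macrophages, *Fcgr3* a low-affinity receptor found widely on myeloid and natural killer cells, and *Fcgr4* a receptor of neutrophils, monocytes and macrophages. *Fcgr2b* encodes the low-affinity receptor with an inhibitory motif, which recruits the inositol phosphatase SHIP1 and raises the threshold of activation. Interferon-gamma is a classical inducer of *Fcgr1*.

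4 of the 5 genes lie close together on mouse chromosome 1 in GRCm38, the build that the study's mm10 coordinates share: *Fcgr2b* at chr1:170958617-170976547 (minus strand), *Fcgr4* at chr1:171018920-171029761 (plus strand), *Fcgr3* at chr1:171051174-171064935 (minus strand) and *Fcer1g* at chr1:171229572-171234365 (minus strand). *Fcgr1* lies apart, at chr3:96282909-96293969 on the minus strand. The promoter windows of *Fcgr1* and *Fcgr4*, from 250 bases before to 50 bases after the RefSeq start of transcription (GRCm38.p6), are shown because these genes moved most. Capitals mark the letters TTCNNNGAA (the gamma-activated site, GAS), GAAANNGAAA (an interferon-stimulated response element, ISRE) and GAGGAA (the core bound by the myeloid factor PU.1), each searched on both strands, so that PU.1 matches on the opposite strand read as the reverse complement.
Fcgr1 promoter, chr3:96293920-96294219, minus strand: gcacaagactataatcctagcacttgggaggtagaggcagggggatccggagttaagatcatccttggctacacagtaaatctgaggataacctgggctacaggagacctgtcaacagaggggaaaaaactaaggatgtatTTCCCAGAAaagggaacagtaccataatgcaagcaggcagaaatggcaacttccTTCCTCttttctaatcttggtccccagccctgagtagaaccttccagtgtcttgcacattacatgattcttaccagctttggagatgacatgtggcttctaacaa
Fcgr4 promoter, chr1:171018676-171018975, plus strand: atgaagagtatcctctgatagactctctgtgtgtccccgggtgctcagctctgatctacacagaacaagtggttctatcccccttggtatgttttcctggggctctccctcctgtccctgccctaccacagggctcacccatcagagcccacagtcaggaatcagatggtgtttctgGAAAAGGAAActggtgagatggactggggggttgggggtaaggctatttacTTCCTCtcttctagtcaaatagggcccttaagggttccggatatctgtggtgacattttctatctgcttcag
The *Fcgr1* window held a GAS match whose first base is at -109 and a PU.1 match at -55, and the *Fcgr4* window an ISRE match at -73 and a PU.1 match at -22. None of these matches overlapped another. Both windows of *Fcgr3* held the PU.1 letters, while the windows of *Fcgr2b* and *Fcer1g* held none of the 3 motifs. Of 32851 mouse promoter windows of the same length, 8.3% held the GAS letters, 3.44% the ISRE letters and 28.3% the PU.1 letters. A match is a description of the letters and says nothing of binding in these cells.

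*Fcgr3* and *Fcgr2b* resemble each other in sequence, which bears on how well their reads can be told apart. The longest identical run of their coding sequences has 129 bases, at coding positions 263 to 391 of *Fcgr3* and 278 to 406 of *Fcgr2b*. It is printed here to show its extent, and is not the only sequence that their transcripts share.
Fcgr3 and Fcgr2b shared coding run: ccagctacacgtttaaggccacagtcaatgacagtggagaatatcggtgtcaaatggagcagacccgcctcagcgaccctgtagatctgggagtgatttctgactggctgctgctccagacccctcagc
In windows of 50 bases along the main GENCODE transcript, 12.8% of those of *Fcgr3* occurred in another gene, in each case *Fcgr2b*, and 12.5% of those of *Fcgr2b* occurred elsewhere, in *Fcgr3* or in 1 of 144 genes outside the members. For *Fcgr1*, *Fcgr4* and *Fcer1g* the share was 0%. The study kept uniquely mapped reads, so fragments that lie wholly within sequence shared by *Fcgr3* and *Fcgr2b* count for neither gene, which can lower the counts of both. Counting did not use strand, and 2.68% of the exon length of *Fcgr2b* overlaps another annotated gene, against 0% for the other members.

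Total counts were 31086184 to 39925495 per library in BM and 24876074 to 45300263 in ATM. BM WT replicate 1 stood apart from the other WT libraries of its tissue, with a chi-square per degree of freedom of 34.2 and 26.2 against them, where the other within-group BM pairs were between 2.01 and 4.14. The Vehicle to WT changes of the members in BM are therefore given without it as well. Other results that rest on BM WT include it unless stated. The macrophage label of the Vehicle ATM group was borne out only in part by 11 monocyte and macrophage markers, which summed to 3040 to 3244 CPM (counts scaled to a common library total) in Vehicle, 3660 to 3889 in WT and 9320 to 13430 in the treated ATM groups. Of these, 3 were higher and 4 lower in Vehicle than in WT, beside 12.5% and 22.9% of all genes. Among the lower ones, *Csf1r*, the receptor for macrophage colony-stimulating factor, was at a mean normalized count (the count scaled to the mean library size of its tissue) of 1579 against 18150 in WT and 22367 in Combo, and *Adgre1*, which encodes the F4/80 antigen used for the sort, at 1404 against 6913 in WT. All 8 neutrophil markers tested were higher in Vehicle than in WT ATM, and their summed level was 21500 to 22760 CPM in Vehicle and 12450 to 12810 in Combo, against 178.9 to 403.3 across the WT, GLP1R agonist and anti-IL-17A ATM libraries. No neutrophil marker tested was at 0 in any group. Pancreatic acinar and epididymal genes, which a macrophage sort should lack, summed to 2991 to 3142 CPM in WT ATM, 910.5 to 954 in Combo and at most 180.5 in the other ATM groups. In bulk RNA, fewer cells of a type and less RNA per cell cannot be told apart.

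**Figure D1:**
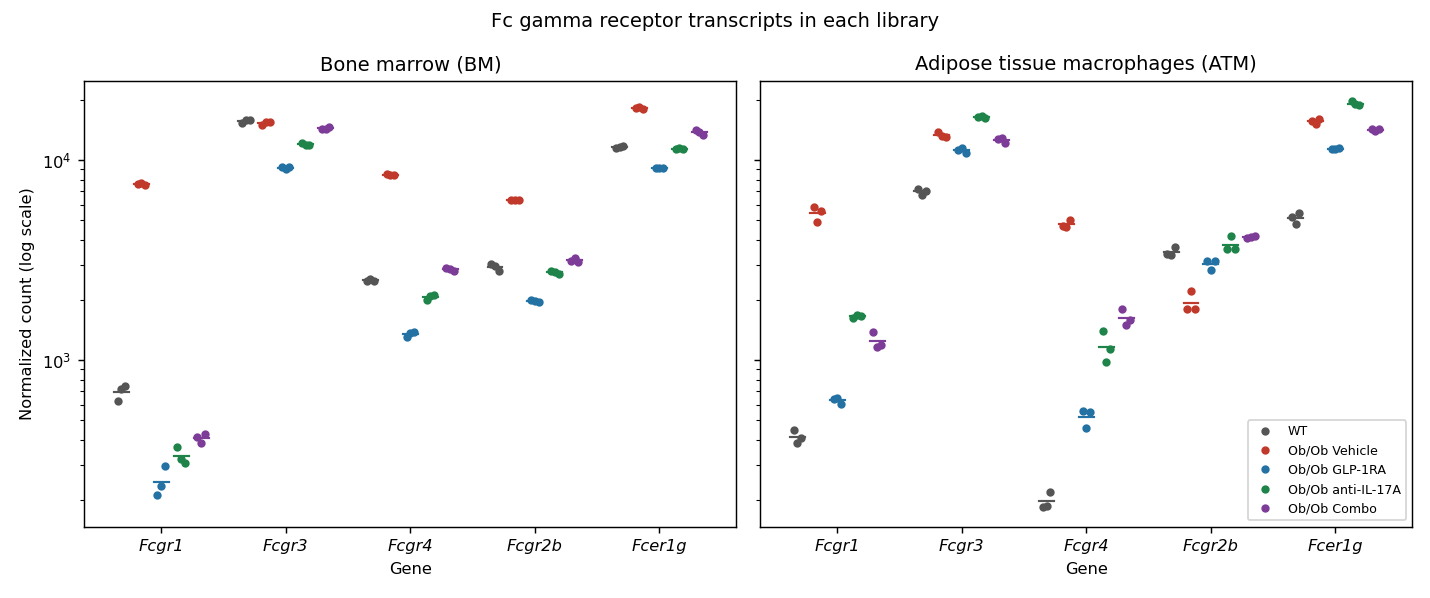
Normalized counts of the 5 genes in each library (points) with the group mean (short line), on a log axis, for BM (left) and ATM (right). The Vehicle points of *Fcgr1*, *Fcgr4* and, in BM, *Fcgr2b* lie far from the other groups, whereas *Fcgr3* varies least in BM and Vehicle is the lowest group for *Fcgr2b* in ATM.

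In lean against obese recipients, that is Vehicle against WT, the high-affinity receptor gene and *Fcgr4* were far higher in the obese animals in both tissues, whereas the inhibitory receptor gene was higher in BM and lower in ATM. A gene was called when the edgeR quasi-likelihood test gave a Benjamini-Hochberg adjusted p below 0.05 and the log2 fold change was beyond 1 in size. In BM, 2 of the 4 members other than *Fcgr1* passed both limits, *Fcgr4* and *Fcgr2b*, both higher in Vehicle, beside 19.5% of all genes tested. In ATM, 3 of 5 members passed, all higher, where 35.4% of all genes passed. The median log2 fold change of the 5 members in ATM was 1.6, beside -0.214 over all genes. Most genes separated the groups here, since in 75.8% of genes in BM and 62.9% in ATM the replicates of Vehicle and WT did not overlap, and so the sizes are given with each value. By adjusted p alone, 3 of those 4 members passed in BM (76.6% of all genes) and 5 of 5 in ATM (56.9%), and the replicates were apart for the same 3 in BM and for 5 of 5 in ATM. *Fcgr4* and *Fcgr2b* also passed without BM WT replicate 1.

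*Fcgr1* had the widest range of the 5 genes in BM. Its normalized counts were 626, 716 and 740 in the WT libraries of BM and 7588, 7664 and 7548 in Vehicle. They were 212, 234 and 295 with the GLP1R agonist, 368, 321 and 307 with the antibody and 413, 384 and 429 in Combo. Vehicle stood alone at the top and no group overlapped another. The Vehicle to WT difference was 3.46 on the log2 scale, a fold of 10.99, and 3.38 without WT replicate 1. The changes of each agent against Vehicle use the same Vehicle libraries and are given as a description too: the log2 fold change was -4.95 for the GLP1R agonist, -4.52 for the antibody and -4.22 for Combo. With every agent *Fcgr1* lay below its WT level. Against WT the log2 value was -1.49 with the GLP1R agonist, -1.06 with the antibody and -0.76 in Combo, the last inside the fold limit. These values are descriptions too, since the WT BM libraries also entered the choice of the set.

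In ATM, *Fcgr1* counts were 448, 385 and 409 in WT and 5828, 4893 and 5589 in Vehicle. They were 639, 648 and 607 with the GLP1R agonist, 1627, 1688 and 1658 with the antibody and 1384, 1171 and 1186 in Combo. The groups kept apart here too, but all 3 agents left *Fcgr1* above WT, the reverse of BM. Vehicle exceeded WT by 3.72 ± 0.105 on the log2 scale (adjusted p = 6.18e-14, edgeR), a fold of 13.1. Against Vehicle *Fcgr1* fell by 3.11 with the GLP1R agonist (adjusted p = 4.48e-13), by 1.71 with the antibody (adjusted p = 3.25e-10) and by 2.12 in Combo (adjusted p = 3.24e-11). Against WT it was 4.01-fold higher with the antibody and 3.02-fold higher in Combo, and both passed, while the GLP1R agonist value of 0.61 on the log2 scale (adjusted p = 0.000157) lay inside the fold limit.

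*Fcgr4*, the activating receptor of neutrophils and monocytes, was also highest in Vehicle in both tissues. In BM its counts were 2492, 2551 and 2491 in WT and 8529.9, 8408 and 8441 in Vehicle. They were 1305, 1373 and 1379 with the GLP1R agonist, 2006, 2091 and 2119 with the antibody and 2879, 2869.7 and 2782 in Combo. Vehicle was 3.37-fold above WT (log2 1.75 ± 0.0324, adjusted p = 4.03e-36, edgeR), and 1.75 on the log2 scale without WT replicate 1. Combo, WT, antibody and GLP1R agonist followed in this order, and neighbours did not overlap. Against Vehicle *Fcgr4* fell by 2.65, 2.03 and 1.57 on the log2 scale with the GLP1R agonist, the antibody and Combo (adjusted p = 9.56e-42, 3.37e-38 and 1.4e-34). Combo lay 1.07 above the GLP1R agonist alone on the log2 scale (adjusted p = 6.51e-27), and *Fcgr4* was the member that passed among the 5 in that BM comparison, where 13.2% of all genes passed.

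In ATM, *Fcgr4* had the widest range of the 5 genes. Its counts were 186, 186 and 219 in WT and 4702, 4631 and 5029 in Vehicle. They were 556, 461 and 553 with the GLP1R agonist, 1399.7, 975 and 1137 with the antibody and 1805, 1507 and 1591 in Combo. WT was lowest, Vehicle highest, and no group overlapped another. The Vehicle to WT log2 fold change was 4.602 ± 0.151 (adjusted p = 4.84e-13, edgeR), a fold of 24.3. *Fcgr4* fell against Vehicle by 3.19, 2.03 and 1.55 on the log2 scale with the GLP1R agonist, the antibody and Combo (adjusted p = 1.97e-11, 2.45e-09 and 6.54e-08). It stayed above WT in every treated group, by 2.66-fold, 5.94-fold and 8.29-fold. The summed level of the neutrophil markers named above was 21500 to 22760 CPM in Vehicle, 12450 to 12810 in Combo and 238.9 to 260.6 in WT. It was 178.9 to 181.2 with the GLP1R agonist and 390.4 to 403.3 with the antibody. The part of neutrophils in the *Fcgr4* values was not tested.

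*Fcgr3*, the low-affinity activating receptor, was the most abundant receptor and hardly differed between WT and Vehicle in BM. Its counts there were 15338, 15959 and 15804 in WT and 15069.7, 15437 and 15480.1 in Vehicle, and the groups overlapped. The log2 fold change was -0.03 (95% interval -0.08 to 0.01, adjusted p = 0.179, edgeR) and -0.05 without WT replicate 1 (adjusted p = 0.0271). The counts were 9209.8, 8986 and 9208 with the GLP1R agonist, 12176, 11913 and 11924 with the antibody and 14367, 14289 and 14682 in Combo. All 3 treated groups lay below Vehicle without overlap, with log2 values of -0.75, -0.35 and -0.09 (adjusted p = 1.12e-27, 8.95e-17 and 0.00134), each inside the fold limit. In ATM the counts were 7215, 6698 and 7032 in WT, 13763, 13217 and 12996 in Vehicle and 11197, 11500.4 and 10852 with the GLP1R agonist. They were 16493, 16533 and 16154 with the antibody and 12814, 12891 and 12142 in Combo. The antibody group was the highest and WT the lowest. Only the antibody against WT passed both limits in ATM (log2 1.23 ± 0.0423, adjusted p = 1.84e-12), the Vehicle to WT value being 0.93 (adjusted p = 2.21e-11), and Combo against Vehicle gave -0.08 (95% interval -0.17 to 0.01, adjusted p = 0.134).

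*Fcer1g*, the chain that the activating receptors need for surface expression and signalling, ranked at the percentile 98.76 or above among the genes of its tissue, per kilobase of exon, in every group of both tissues. In BM its counts were 11521, 11642 and 11779.8 in WT, 18259.6, 18331 and 18092 in Vehicle and 9169.5, 9130.1 and 9096 with the GLP1R agonist. They were 11371, 11507 and 11352 with the antibody and 14135, 13896 and 13292 in Combo. Vehicle was highest and the GLP1R agonist lowest, whereas the antibody and WT groups did not differ beyond the test (log2 -0.03, 95% interval -0.08 to 0.02, adjusted p = 0.277, edgeR). In the edgeR fit no BM contrast of *Fcer1g* with Vehicle passed the fold limit, the values being 0.65 for Vehicle against WT (0.64 without WT replicate 1) and -0.997, -0.68 and -0.40 for the GLP1R agonist, the antibody and Combo against Vehicle. The first of these 3 lay at the limit, and was past it with DESeq2 size factors or DESeq2 itself (-1.01 in each), with only the groups compared (-1.0031), without Vehicle replicate 3 (-1.02) and without GLP1R agonist replicate 1 (-1.0001). In ATM the counts were 5214, 4803 and 5469 in WT, 15620, 15077 and 16132 in Vehicle and 11336, 11323 and 11555 with the GLP1R agonist. They were 19685, 19054 and 18817 with the antibody and 14322, 13990.1 and 14366 in Combo. *Fcer1g* was higher than WT in every Ob/Ob ATM group and passed in each, with a log2 fold change of 1.60 ± 0.0464 in Vehicle, 1.14 ± 0.0459 with the GLP1R agonist, 1.89 ± 0.0467 with the antibody and 1.46 ± 0.0462 in Combo (adjusted p at most 1.7e-11). Against Vehicle the values were -0.45, 0.30 and -0.13, all inside the fold limit.

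*Fcgr2b*, the inhibitory receptor gene, lay above WT in Vehicle BM and below WT in Vehicle ATM. In BM its counts were 3034, 2969 and 2796 in WT and 6358, 6325 and 6332 in Vehicle. They were 1995, 1977 and 1959 with the GLP1R agonist, 2793, 2759.9 and 2697 with the antibody and 3149, 3231 and 3081 in Combo. Vehicle was highest, without overlap with any other group. Vehicle exceeded WT by 1.11 ± 0.0329 on the log2 scale (adjusted p = 7.46e-29, edgeR), and by 1.14 without WT replicate 1. Against Vehicle *Fcgr2b* fell by 1.68, 1.205 and 1.01 with the GLP1R agonist, the antibody and Combo (adjusted p = 7.93e-35, 5.11e-30 and 2.26e-27), and the last value was -0.99 without Combo replicate 3, inside the fold limit. Combo and WT differed by 0.10 and antibody and WT by -0.09 on the log2 scale (adjusted p = 0.00626 and 0.014), the latter by -0.07 without WT replicate 1 (adjusted p = 0.078).

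In ATM, *Fcgr2b* counts were 3404, 3361 and 3700.2 in WT and 1803, 2213 and 1802 in Vehicle. They were 3129, 2838 and 3122 with the GLP1R agonist, 3586, 4161 and 3614 with the antibody and 4088, 4153 and 4156 in Combo. Vehicle was the lowest group and overlapped none. The part of neutrophils, whose markers were high in Vehicle ATM, in these values was not tested. The Vehicle to WT log2 fold change was -0.85 ± 0.0882 (adjusted p = 7.16e-07, edgeR), inside the fold limit. Against Vehicle the value was 0.64 with the GLP1R agonist (adjusted p = 1.52e-05) and 0.97 with the antibody (adjusted p = 1.52e-07), and *Fcgr2b* rose by 1.09 in Combo (adjusted p = 4.51e-08), a fold of 2.13. The antibody value was 1.07 without Vehicle replicate 2 and 1.00 without antibody replicate 1, just past the limit. Combo lay above WT by 0.24 (adjusted p = 0.0342), but neither could be told from the antibody group, since WT and antibody differed by 0.12 (95% interval -0.07 to 0.30, adjusted p = 0.309) and Combo and antibody by 0.13 (95% interval -0.06 to 0.31, adjusted p = 0.326).

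**Figure D2:**
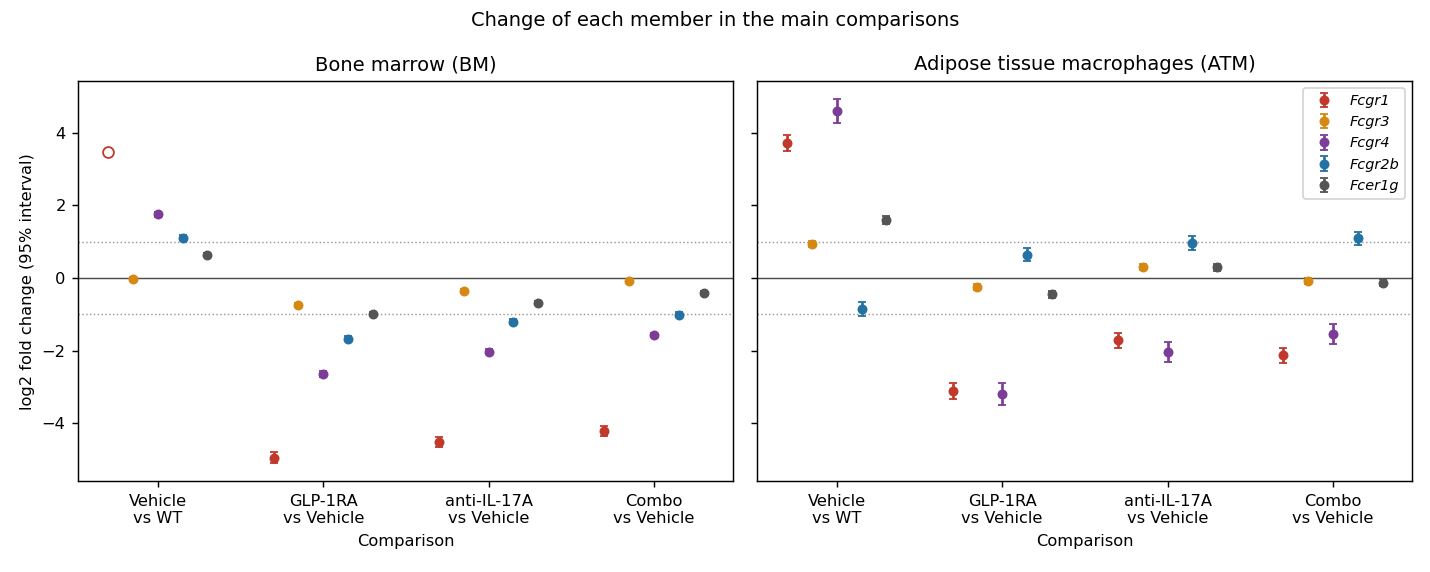
Log2 fold changes of the 5 genes (points) with 95% intervals (bars) in the 4 comparisons of Vehicle with WT and of each agent with Vehicle, in BM (left) and ATM (right), dotted lines marking the fold limit of 1. The open point is *Fcgr1* in BM for Vehicle against WT, described without a test. The *Fcgr1* points in BM for each agent are drawn with intervals but are descriptions too. *Fcgr2b* has the sign of *Fcgr1* and *Fcgr4* in each BM comparison and the opposite sign in each ATM comparison, and *Fcgr1* and *Fcgr4* lie farthest from 0.

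Counted over the members, *Fcgr4* and *Fcgr2b* were called lower than in Vehicle with each agent in BM, beside *Fcgr1* as a description, making 3 of 5, where 16.7% of all genes passed with the GLP1R agonist, 16.1% with the antibody and 17.7% in Combo. In ATM, 2 of 5 members passed with the GLP1R agonist and 2 of 5 with the antibody, *Fcgr1* and *Fcgr4* being lower in both, beside 31.8% and 35.5% of all genes. Combo against Vehicle in ATM gave 2 lower members and 1 higher, *Fcgr2b*, beside 26.4% of all genes. These comparisons share the Vehicle libraries. By adjusted p alone, all 5 members, *Fcgr1* included, passed in BM with each agent (72.8%, 73% and 73.8% of all genes for the GLP1R agonist, the antibody and Combo), and in ATM 5, 5 and 4 passed (53.8%, 58.1% and 48.7% of all genes). The replicates of the groups did not overlap for any member in these 6 comparisons, as for 75.5%, 76% and 75.7% of all genes in BM and 59.4%, 61.5% and 52.5% in ATM.

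The treated groups were next set against WT to ask how far they returned to the lean level. In BM, 0 of 5 members passed in Combo against WT by edgeR and 0 by DESeq2, although all 5 had an unadjusted p under 0.05 by edgeR, and 14.3% of all genes passed. With the GLP1R agonist and with the antibody 1 of 5 members was past the limits, *Fcgr1*, lower in both and given as a description, beside 14.7% and 6.32% of all genes. In ATM, 3 of 5 passed in Combo, 2 of 5 with the GLP1R agonist and 4 of 5 with the antibody, all higher than WT, beside 21.6%, 15.1% and 18.7% of all genes. Thus every difference from WT past the limits was a lower level in BM, where it rests on *Fcgr1* alone, and a higher level in ATM. By adjusted p alone, the BM members passing were 5 in Combo, 5 with the GLP1R agonist and 4 with the antibody (73.3%, 74.7% and 66.3% of all genes), and in ATM they were 5, 4 and 4 (41.1%, 35.5% and 38.3%). The replicates were apart from WT for all 5 members in BM (73.3%, 74.6% and 67.9% of all genes) and for 5, 5 and 4 in ATM (56.1%, 55.4% and 55.9%). These comparisons share the WT libraries, and in ATM the recipients, as taken here, and possibly the donor cells differ between the groups. Monocyte and macrophage markers summed to 3660 to 3889 CPM in WT ATM and 9320 to 13430 in the treated ATM groups. Pancreatic acinar and epididymal genes summed to 2991 to 3142 CPM in WT ATM. The part of these contents in the differences from WT was not tested. The BM counts against WT include *Fcgr1*, whose values there are descriptions.

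Combo was compared with each single agent. In BM, Combo lay above the GLP1R agonist for all 5 members, by 0.59 to 1.07 on the log2 scale, with 1 called (*Fcgr4*), and above the antibody by 0.20 to 0.46, with 0 called by edgeR and 0 by DESeq2 (5 with an unadjusted p under 0.05 by edgeR; 5.67% of all genes passed). In ATM, Combo exceeded the GLP1R agonist by 1.64 for *Fcgr4* (adjusted p = 8.12e-08, edgeR), the single member called, beside 18.7% of all genes. *Fcgr1* lay at the limit there with 0.98, and passed it without GLP1R agonist replicate 2 (1.00), Combo replicate 2 (1.03) or Combo replicate 3 (1.02). Against the antibody in ATM, 0 of 5 passed by edgeR and 0 by DESeq2, with 4 at an unadjusted p under 0.05 by edgeR, beside 14.2% of all genes. The single agents differed in ATM, where *Fcgr1* and *Fcgr4* were lower with the GLP1R agonist than with the antibody by 1.39 and 1.16 on the log2 scale (adjusted p = 2.36e-08 and 6.27e-06), 2 of 5 members beside 8.1% of all genes. In BM 0 of 5 members passed in that comparison by edgeR and 0 by DESeq2, with 5 at an unadjusted p under 0.05 by edgeR, beside 5.83% of all genes. For Combo against the GLP1R agonist, Combo against the antibody and the GLP1R agonist against the antibody, 5, 5 and 5 members passed by adjusted p alone in BM (71.4%, 52.5% and 62.7% of all genes) and 5, 4 and 5 in ATM (39.8%, 28.6% and 29.8%). The replicates were apart for all 5 members in BM in each (74.8%, 61% and 69% of all genes) and for 5, 4 and 5 in ATM (53.9%, 43.4% and 47.8%).

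Both agents together were also set against the sum of the 2 single log2 changes. In BM Combo lay above that sum for all 5 members. The excess was 5.25 for *Fcgr1*, 3.10 for *Fcgr4*, 1.88 for *Fcgr2b*, 1.27 for *Fcer1g* and 1.01 for *Fcgr3*. The values other than that of *Fcgr1* were past the limits in edgeR, where 21.1% of all genes passed. The Vehicle BM libraries enter this excess with a positive sign, and the set was chosen for a high *Fcgr1* in them. The *Fcgr1* value is thus a description with no test, and the values of the other members are not independent support. Where each agent alone took a gene below Vehicle, the sum lies below both single changes. A Combo level near those of the single agents then already gives an excess. The *Fcgr3* value was 0.98 without Vehicle replicate 3, inside the limit. In ATM it was called for *Fcgr1* at 2.697 and *Fcgr4* at 3.67, beside 35.9% of all genes, and was -0.52, -0.12 and 0.02 for *Fcgr2b*, *Fcgr3* and *Fcer1g*. By adjusted p alone the excess passed for 5 members in BM, *Fcgr1* included as a description (68.6% of all genes), and its counterpart in ATM for 3 (50.5%).

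Whether a gene responded alike in the 2 tissues was tested directly, as the difference of its log2 fold changes in a limma voom fit of all 30 libraries with the variance weighted by tissue. For *Fcgr2b* the ATM change was below the BM change by 1.96 for Vehicle against WT (95% interval of ATM minus BM -2.18 to -1.75), and above it by 2.33, 2.15 and 2.15 for the GLP1R agonist, the antibody and Combo against Vehicle, all called (adjusted p at most 5.08e-19). *Fcgr4* rose more in ATM for Vehicle against WT, by 2.85 (adjusted p = 4.89e-13), while for the GLP1R agonist against Vehicle the value was -0.53 (95% interval -0.84 to -0.23, adjusted p = 0.0031), inside the limit, and for the antibody and Combo -0.04 (95% interval -0.25 to 0.17, adjusted p = 0.785) and 0.06 (95% interval -0.14 to 0.26, adjusted p = 0.619). For *Fcgr1* the change with the GLP1R agonist, the antibody and Combo was 1.85, 2.79 and 2.13 smaller in size in ATM, given as a description because the Vehicle BM values that chose the set enter it. For *Fcgr3* and *Fcer1g* the Vehicle to WT difference was 0.97 and 0.95, just inside the limit, and without ATM Vehicle replicate 2 both passed at 1.00, so that 4 of 5 members passed in place of 2. Without ATM Vehicle replicate 3 *Fcgr3* passed at 1.01. In all, 2 of 5 members were past the limits in each of the 4 comparisons, *Fcgr1* among them for each agent, where 28.4%, 25.8%, 29.1% and 27.5% of the 13076 genes in both tables passed. The tissues also differ in how cells were obtained, whole marrow against a sort, which cannot be told apart from tissue here. The part of the high neutrophil markers of Vehicle ATM in these differences was not tested.

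**Figure D3:**
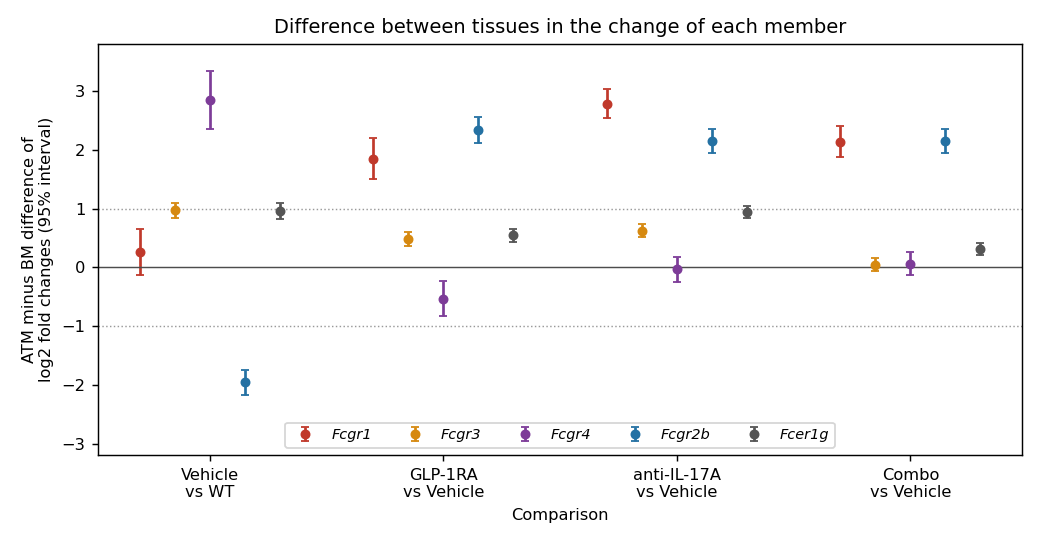
ATM minus BM difference of the log2 fold changes of each gene (points) with 95% intervals (bars) in the 4 comparisons, dotted lines marking 1 and -1. *Fcgr2b* lies below -1 for Vehicle against WT and above 2 for each agent, and *Fcgr1* lies above 1 for each agent.

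Levels of different genes were compared per length, as CPM per kilobase of exon. In WT BM, *Fcer1g* was at 383 ± 4.25 CPM per kilobase (SD, n = 3), *Fcgr3* at 260 ± 5.35, *Fcgr4* at 57.4 ± 0.782, *Fcgr2b* at 14.5 ± 0.610 and *Fcgr1* at 7.70 ± 0.666. In Vehicle BM the order changed, *Fcgr4* reaching 193 ± 1.44 and *Fcgr1* 84.3 ± 0.654, above *Fcgr2b* at 31.4 ± 0.0873. In WT ATM, *Fcgr2b* at 18.2 ± 0.961 was above both *Fcgr1* at 4.82 ± 0.369 and *Fcgr4* at 4.73 ± 0.457, whereas in Vehicle ATM it was the lowest of the 4 receptors at 10.1 ± 1.23, below *Fcgr1* at 63.3 ± 5.65 and *Fcgr4* at 115 ± 5.09. *Fcgr3* was the largest single receptor in every group of both tissues.

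As shares of the summed receptor level per kilobase, *Fcgr3* made up 76.5% ± 0.263 of it in WT BM and 45.1% ± 0.476 in Vehicle BM, while *Fcgr1* and *Fcgr4* held larger shares, at 14.98% ± 0.124 and 34.4% ± 0.397 in Vehicle against 2.27% ± 0.164 and 16.9% ± 0.199 in WT. In treated BM the *Fcgr3* share was 73.7% to 77.7%, near that of WT. In ATM the *Fcgr3* share was 81.4% ± 0.702 in WT, 55.1% ± 1.33 in Vehicle and 74.4% to 84.5% in the treated groups. The *Fcgr2b* share of ATM was 12.2% ± 0.562 in WT and 2.41% ± 0.351 in Vehicle, and 5.61% to 7.32% in the treated groups, between the other 2. The part of neutrophils, whose markers were high in Vehicle and Combo ATM, in these shares was not tested.

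**Figure D4:**
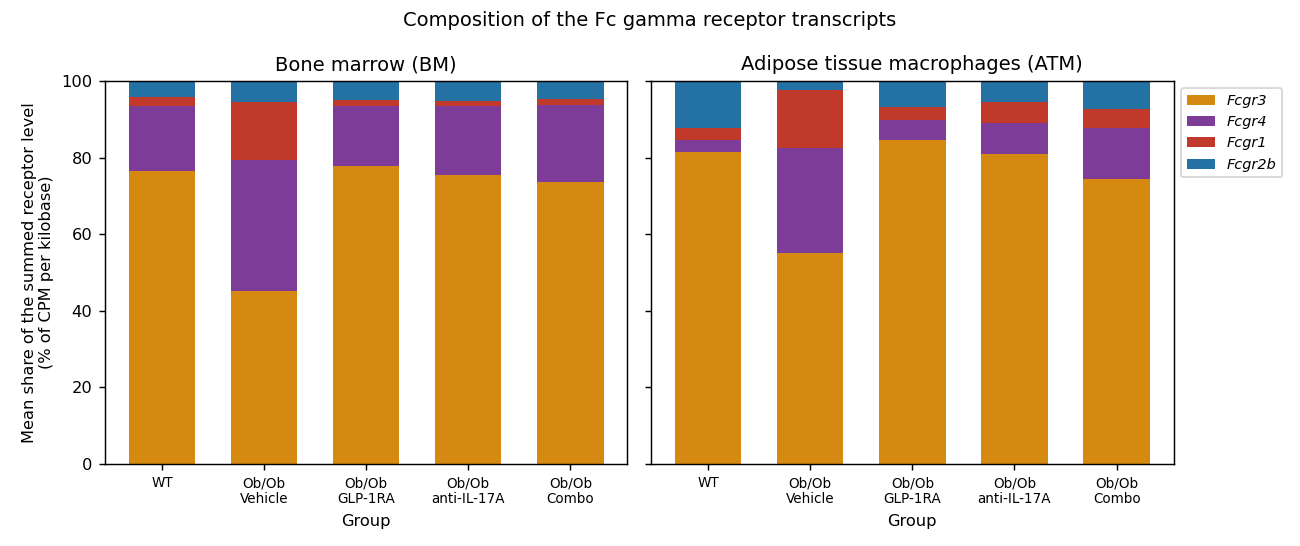
Mean share (percent) of each of the 4 receptor genes in their summed level in CPM per kilobase, by group, for BM (left) and ATM (right). *Fcgr3* falls from 76.5% to 45.1% between WT and Vehicle in BM and from 81.4% to 55.1% in ATM, and *Fcgr2b* is 2.41% in Vehicle ATM.

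The ratio of the 3 activating receptors to *Fcgr2b*, per kilobase, is given as a description with no test, since it was built from values already shown. In BM it was 22.4 ± 1.22 (SD, n = 3) in WT and 16.9 ± 0.124 in Vehicle, and 18.8 ± 0.359, 18.3 ± 0.276 and 19.7 ± 0.629 with the GLP1R agonist, the antibody and Combo. Vehicle BM, at 16.8 to 17.0, was the lowest group. In ATM the ratio was 7.21 ± 0.381 in WT and 41.0 ± 5.66 in Vehicle, whose libraries at 34.5 to 44.7 lay above all others. With the GLP1R agonist, the antibody and Combo it was 13.6 ± 1.02, 16.9 ± 1.51 and 12.7 ± 0.550, above WT and below Vehicle. In Vehicle ATM the neutrophil markers summed to 21500 to 22760 CPM, against 238.9 to 260.6 in WT and 12450 to 12810 in Combo. The part of such cells in the ratio was not tested. The union of *Fcgr2b* exons, 5790 bases, is longer than its main transcript, 3544 bases, which raises the per-kilobase ratio in every group alike. The ratio of plain counts was 2.18 in WT and 12.3 in Vehicle ATM, and 6.46 and 4.95 in BM, the same order.

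**Figure D5:**
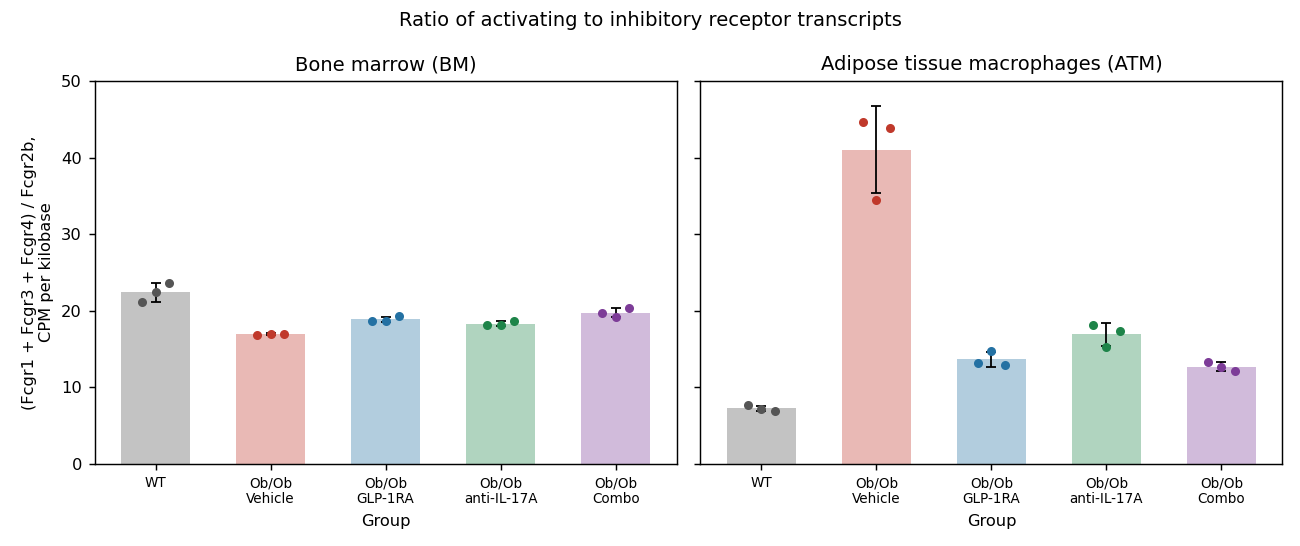
Ratio of the summed CPM per kilobase of *Fcgr1*, *Fcgr3* and *Fcgr4* to that of *Fcgr2b* in each library (points), with the group mean (bar) and SD (whisker), for BM (left) and ATM (right). In BM the groups run from 16.9 in Vehicle to 22.4 in WT, and in ATM from 7.21 in WT to 41.0 in Vehicle.

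Several gene groups moved with the receptors. Of 12 interferon-induced genes, 10 were higher in Vehicle than in WT in BM (median log2 fold change 4.7 beside -0.0165 over all genes) and 12 in ATM (median 4.45 beside -0.214), and all 12 were lower with each agent in both tissues. Over all genes, 9.44% were called higher in Vehicle than in WT in BM and 12.5% in ATM. With the GLP1R agonist, the antibody and Combo, 9.08%, 8.46% and 11.1% of all genes were called lower in BM, and 10.9%, 13.1% and 12.2% in ATM. The T cell chemoattractant *Cxcl9* rose by 6.53 in BM and 7.75 in ATM on the log2 scale (adjusted p = 1.44e-20 and 6.05e-17, edgeR), and the antiviral gene *Ifit3* by 5.03 and 5.54 (adjusted p = 1.26e-34 and 8.6e-17). The summed level of the list was 526.2 to 533.5 CPM in WT BM, 5628 to 5706 in Vehicle and 209.3 to 311.3 in the treated groups, the same order of WT against treated groups as for *Fcgr1*. In ATM it was 1480 to 1568 CPM in WT, 25670 to 26700 in Vehicle and 728.4 to 1286 in the treated groups, which thus lay below WT although *Fcgr1*, *Fcgr3*, *Fcgr4* and *Fcer1g* lay above it. The part of these genes in the receptor results was not tested.

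Markers of cells that carry these receptors also differed between groups. In BM, 7 of 8 B cell markers were lower in Vehicle than in WT (median -1.76), among them *Ms4a1*, which encodes CD20, by 2.38 on the log2 scale (adjusted p = 3.8e-11, edgeR), while *Fcgr2b*, which B cells carry, was higher. All 8 B cell markers fell further in Combo, and their summed level was 1283 to 1300 CPM in WT and 380 to 399.4 in Vehicle. It was 128 to 129.7 with the GLP1R agonist, 396.7 to 401.5 with the antibody and 121.9 to 126.3 in Combo. Of 11 monocyte and macrophage markers in BM, 4 were higher and 3 lower in Vehicle (median 0.0116), with the endotoxin co-receptor gene *Cd14* up by 3.93 (adjusted p = 8.87e-40) and the lysozyme gene *Lyz2*, which fell by 1.90 (adjusted p = 9.2e-45). The samples mix LysM-Cre+ donor cells and competitor cells in proportions that the counts do not give. Neither *Lyz2* nor the summed level of the 11 markers can therefore be read as monocyte content alone. The neutrophil markers of BM summed to 76650 to 130400 CPM over all groups, and 1 of 8, *Retnlg*, was lower in Vehicle than in WT. In ATM, 3 monocyte and macrophage markers were higher and 4 lower in Vehicle than in WT (median -0.492), with *Ly6c2* of inflammatory monocytes up by 4.08 (adjusted p = 1.2e-16) and *Csf1r*, which fell by 3.52 (adjusted p = 2.24e-14). Mast cell and basophil markers, of cells that also use the *Fcer1g* chain, gave 5 of 8 higher in Vehicle ATM (median 2.34), with *Fcer1a*, the IgE-binding chain, up by 4.45 (adjusted p = 4.04e-11), and summed to 238.8 to 258.1 CPM in WT and 678.5 to 1614 in the Ob/Ob groups. In BM they summed to 793.9 to 840 CPM in WT, 1147 to 1172 in Vehicle and 404.5 to 560.4 in the treated groups. Adipocyte markers summed to 4190 to 4463 CPM in Vehicle ATM and 1262 to 1497 in the other ATM groups. Of the natural killer cell markers, 2 of 7 were higher and 2 lower in Vehicle BM, of which *Klrd1* was no longer beyond the fold limit without BM WT replicate 1 (-0.94), and 3 of 7 were lower in Vehicle ATM. Beside these marker counts, 9.44% of all genes were called higher and 10% lower in Vehicle than in WT in BM, and 12.5% and 22.9% in ATM. In Combo against Vehicle in BM 11.1% of all genes were called lower. The part of any of these cells in the receptor results was not tested.

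Genes that act downstream of the receptors were counted next. Of 27 genes of Fc receptor signalling, 1 passed in BM for Vehicle against WT (median -0.00789), where 19.5% of all genes passed, the adaptor *Gab2*, which rose by 1.498 on the log2 scale (adjusted p = 1.13e-28, edgeR). In ATM 5 of the 27 were higher and 3 lower (median 0.566 beside -0.214 over all genes), where 12.5% of all genes were called higher and 22.9% lower. The Src-family kinase *Fgr* rose by 2.56 (adjusted p = 6.91e-09), the inhibitory adaptor *Dok1* by 2.39 (adjusted p = 1.51e-09) and the adaptor *Lcp2* by 1.34 (adjusted p = 1.87e-10). In Combo against Vehicle, 3 of 27 were lower in BM, *Inppl1*, *Cblb* and *Lat*, while in ATM 7 were higher and 2 lower, the adaptor *Lat* and the Rac activator *Dock2* being higher by 2.38 and 2.34 (adjusted p = 6.06e-10 and 2.46e-09). Over all genes, 11.1% were called lower there in BM, and 14.1% higher and 12.2% lower in ATM. With the GLP1R agonist 2 of 27 fell in BM and 2 rose and 3 fell in ATM, and with the antibody 1 fell in BM and 8 rose and 3 fell in ATM. Over all genes, 9.08% were called lower in BM with the GLP1R agonist and 8.46% with the antibody. In ATM 20.8% were called higher and 10.9% lower with the GLP1R agonist, and 22.4% and 13.1% with the antibody.

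Other immunoglobulin receptors were counted likewise. Of the 10 in the BM table, 1 was higher in Vehicle than in WT and 5 lower (median -0.288), where 9.44% of all genes were called higher and 10% lower. The low-affinity IgE receptor gene *Fcer2a* fell by 5.52 on the log2 scale (adjusted p = 2.75e-32, edgeR), the B cell gene *Fcrla* by 3.01 (adjusted p = 3.33e-38) and *Fcgrt*, which encodes the neonatal Fc receptor that recycles IgG, by 1.72 (adjusted p = 5.65e-25), whereas *Trim21*, the cytosolic antibody receptor, rose by 1.54 (adjusted p = 3.98e-27). Of the 12 in the ATM table, 3 were higher and 6 lower (median -1.07), where 12.5% of all genes were called higher and 22.9% lower, among them *Fcrls*, which fell by 5.33 (adjusted p = 6.28e-08), and the polymeric immunoglobulin receptor gene *Pigr* up by 3.57 (adjusted p = 1.59e-06). In Combo against Vehicle, 7 of 10 fell in BM, *Trim21* by 2.27 (adjusted p = 5.41e-32), and in ATM 4 rose and 3 fell. The all-gene shares there were 11.1% lower in BM, and 14.1% higher and 12.2% lower in ATM.

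Neighbours of the 4 chromosome 1 members were counted as well. Of a list of 15 other genes near them, 2 were higher and 1 lower in Vehicle against WT in BM (median 0.0925), where 19.5% of all genes passed. Of 14 tested in ATM, 3 were higher and 1 lower (median 0.0301), where 35.4% of all genes passed. These counts are not read as a result about the neighbours. The tight-junction gene *F11r* rose by 2.701 in BM and 1.26 in ATM on the log2 scale (adjusted p = 2.27e-21 and 1.54e-09, edgeR).

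The genes whose log2 CPM followed each member most closely over the 15 libraries of a tissue were named by Pearson correlation, as a description. In BM, *Fcgr1* was followed most closely by *Ifi35*, *Psme2* and *Gbp2* (r = 0.995, 0.995 and 0.994). *Fcgr4* and *Fcgr2b* had the same 3 genes, *Casp4*, *Sp140* and *Pnp* (r from 0.991 to 0.998), and they correlated with each other at r = 0.996. *Fcgr3* was followed by *Eps8*, *Pdia4* and *Hsp90b1* (r from 0.988 to 0.991) and *Fcer1g* by *Hdc*, *Ppp5c* and *Ikbke* (r from 0.988 to 0.990). In ATM, *Fcgr1* was followed by *Gngt2*, *Snx10* and *Psmc4*, *Fcgr4* by *Clic1*, *Fxyd5* and *Psmb3*, *Fcgr2b* by *Rp2h*, *Rcbtb2* and *Ndufs1*, *Fcgr3* by *Capg*, *Anxa2* and *Evi2a* and *Fcer1g* by *Capg*, *Hk3* and *Anxa2* (r from 0.968 to 0.992). *Fcgr3* and *Fcer1g* correlated at r = 0.990 there, whereas *Fcgr4* and *Fcgr2b* were at r = -0.507. The 15 libraries are 5 groups of 3, not independent points, and by Spearman correlation 1 of the 15 genes named in BM and 0 of the 15 in ATM were again among the closest 3.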

How the data were processed

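Poly(A) RNA of whole bone marrow and of sorted adipose macrophages was sequenced as paired ends, unstranded. The authors deposited 1 table of raw counts per tissue, made with STAR 2.7.2a on mm10 and featureCounts 2.0.1 on GENCODE annotation, with uniquely mapped reads of mapping quality at least 10, reads over several genes being counted for each. No library column was left out. Counts were fitted per tissue over 15 libraries with edgeR 4.0.16 (TMM, filterByExpr, robust quasi-likelihood test) in R 4.3.3, with adjusted p over all genes. The filter removed 0 genes in each tissue, as genes with few counts were already absent from the deposited tables. The spread between libraries gave a biological coefficient of variation of 3.506% in BM and 32.48% in ATM, and p-values measure only the spread between these libraries. Within-group BM pairs without WT replicate 1 were not far above counting noise, with a chi-square per degree of freedom of 2.01 to 4.14. Whether that spread is the one between mice was not tested. Normalized counts are scaled to the mean effective library size of the tissue. Differences between tissues used limma 3.58.1 on the genes in both tables. DESeq2 1.42.0 served as an alternative. Scripts were tested on simulated data. Named genes were the 5 members everywhere, the 3 genes most like each member (prior count 2, mean count at least 10), and up to 4 called genes per list with the largest change. 1 gene of the signalling list is not reported here by name. Members and lists were chosen with earlier results of these data known, so their p-values are not independent evidence. Gene lengths and positions are from GENCODE M21, promoters from RefSeq.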

Additional observations from a re-analysis of the deposited data

Results flagged for a closer look

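8 of the members' changes passed the limits on the difference between BM and ATM, given here as ATM minus BM on the log2 scale (limma voom, 13076 genes, 20 tests on the members). *Fcgr2b* differed in all 4 comparisons, by -1.96 for Vehicle against WT and by 2.33, 2.15 and 2.15 for the GLP1R agonist, the antibody and Combo against Vehicle. *Fcgr4* differed by 2.85 for Vehicle against WT. *Fcgr1* differed by 1.85 for the GLP1R agonist, 2.79 for the antibody and 2.13 for Combo, each against Vehicle. The ATM minus BM contrasts with Vehicle share the Vehicle libraries. The share of all genes that passed was 28.4%, 25.8%, 29.1% and 27.5% in the 4 comparisons, beside 2 of 5 members in each. The Vehicle BM values that chose the set enter the 3 *Fcgr1* values, which are descriptions.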

How the results depend on the processing

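No member changed direction where it was called under any alternative. Without the fold limit, the members passing were 5 in BM for each agent against Vehicle, for Combo and the GLP1R agonist against WT and for the 3 comparisons among the treated groups, and 4 for the antibody against WT. In ATM without that limit they were 5 for Vehicle against WT, the GLP1R agonist and the antibody against Vehicle, Combo against WT, Combo against the GLP1R agonist and the GLP1R agonist against the antibody, and 4 for the GLP1R agonist against WT and for Combo against the antibody. Over all genes, 52.5% to 74.7% passed without the limit in these BM comparisons and 28.6% to 58.1% in these ATM ones. The members that differed between tissues then numbered 4, 5 and 4 for Vehicle against WT, the GLP1R agonist and the antibody. For Combo they were *Fcgr1*, *Fcgr2b* and *Fcer1g*. *Fcgr1* enters the counts of the agents as a description. The share of all genes without that limit is not given here for the differences between tissues, so these counts are not read as a result about the members. Combo against the GLP1R agonist in ATM gave 2 members in place of 1 with DESeq2 size factors, with DESeq2, with at least 10 counts in every library and with only the 2 groups, and 1 to 2 leaving out single libraries. In the main fit 18.7% of all genes passed there. Leaving out single libraries gave 2 to 4 members that differed between tissues for Vehicle against WT, where 28.4% of all genes passed in the main fit. The ratio of plain counts was 6.46, 4.95, 5.43, 5.24 and 5.62 in BM and 2.18, 12.3, 4.08, 5.10 and 3.75 in ATM for WT, Vehicle, GLP1R agonist, antibody and Combo.

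Same-numbered libraries correlated at -0.0343 to 0.0617 in their deviations, so the numbers are not taken as pairs, and the replicate block left every count of members called as it was, for example 3 for Vehicle against WT in each tissue. BM counts against Vehicle or WT include *Fcgr1*, whose value there is a description. DESeq2 size factors shifted the median gene by at most 0.0521 on the log2 scale. Of the list genes, *Fcrla* lost its call for Combo against Vehicle in ATM with only those groups (adjusted p = 0.157). With 3 libraries per group, values close to the fold limit cannot be placed on either side.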
